A study of Mus musculus with 6 samples.

Results

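The metalloproteinases described here are the ADAM, ADAMTS and MMP genes, together with the TIMP genes that encode their inhibitors. Members were taken by symbol from the RefSeq annotation of mouse build GRCm38, as protein-coding genes whose name is Adam, Adamts, Mmp or Timp followed by a digit, which leaves out the ADAMTS-like genes. This gave 80 of 21887 protein-coding genes of the annotated nuclear chromosomes: 34 ADAM, 19 ADAMTS, 23 MMP and 4 TIMP genes. Open chromatin had been mapped by ATAC-seq, where a transposase inserts adapters into accessible DNA, in mouse embryonic fibroblasts from embryos at E13.5. The study set 3 libraries of wild-type cells (Acvr1+/+) against 3 libraries of cells heterozygous for the allele of fibrodysplasia ossificans progressiva (Acvr1R206H/+, FOP mutant). Both genotypes were grown in the same medium with no added ligand in the labels, and Acvr1 encodes a BMP type I receptor. In FOP, bone is laid down in muscle and connective tissue.

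The authors deposited 2965 regions that were more accessible in FOP mutant cells and 556 that were less accessible, as positions alone. There is no value per library, fold change or p-value, so the depth is unknown, no level can be given per sample and the spread between libraries cannot be seen. The list of a region is therefore the authors' own call. The labels call the libraries of a genotype biological replicates and do not tie them to single embryos. The labelled cell type could not be checked against markers, and a change within each cell cannot be told apart from a different mix of cells in the culture. A region was linked to a gene when its midpoint lay inside the gene's span, from the first to the last annotated base, or, outside every span, when that gene was the nearest within 100 kb. A link is a position and does not show that the region acts on the gene.

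Metalloproteinases are zinc-dependent enzymes. MMPs cleave collagens and other matrix proteins, either as secreted enzymes or anchored in the cell membrane. ADAMs are membrane proteins, many of which release the outer parts of other membrane proteins, and the remainder lack protease activity or act in germ cells. ADAMTS enzymes are secreted, and they trim procollagens, cleave large proteoglycans such as aggrecan and versican, or attach to fibrillin microfibrils. TIMPs bind and block the active sites of MMPs and of some ADAM and ADAMTS enzymes. In bone and cartilage these families remodel the matrix on which new tissue is laid down.

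More accessible regions were linked to 11 of the 80 genes, 17 regions in all, and a less accessible region to 1 gene, Mmp14. The share of genes with a more accessible region was 13.8% among members and 7.27% among all protein-coding genes. For less accessible regions it was 1.25% among members and 1.99% among all genes. Of the 18 linked regions 94.4% were more accessible (Clopper-Pearson 95% interval 72.7 to 99.9%, for counting error only), and over all 3521 listed regions the share was 84.2% (83.0 to 85.4%). The listed regions include those linked to no gene, and 2290 more accessible and 473 less accessible ones were linked under the same rule. The interval for the members includes the share over all listed regions. It treats regions at the same gene as independent, and the 18 regions are part of the 3521. Counts of this kind carry no test here, since genes and regions are not replicates of a genotype.

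Within the families, ADAMTS genes had the largest share. More accessible regions were linked to 6 of 19 ADAMTS genes (31.6%), 3 of 34 ADAM genes (8.82%), 2 of 23 MMP genes (8.70%) and 0 of 4 TIMP genes. The ADAMTS genes took 11 of the 17 regions, led by Adamts3 and Adamts9 with 3 each and Adamts17 with 2, followed by Adamts6, Adamts18 and Adamts20 with 1 each. Both the count and the order rest on the limit of 100 kb. With links outside genes limited to 10 kb, ADAMTS genes had 5 of 10 regions at 4 genes and none had more than 2, and with no limit they had 16 of 24 at 7 genes, led by Adamts3 and Adamts5 with 4 each. Among ADAM genes Adam12 had 2 regions, and Adam10 and Adam28 had 1 each. Among MMP genes Mmp13 and Mmp16 had 1 each. Genes with 3 or more such regions made up 2.50% of the members and 0.722% of all protein-coding genes.

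**Figure D1:**
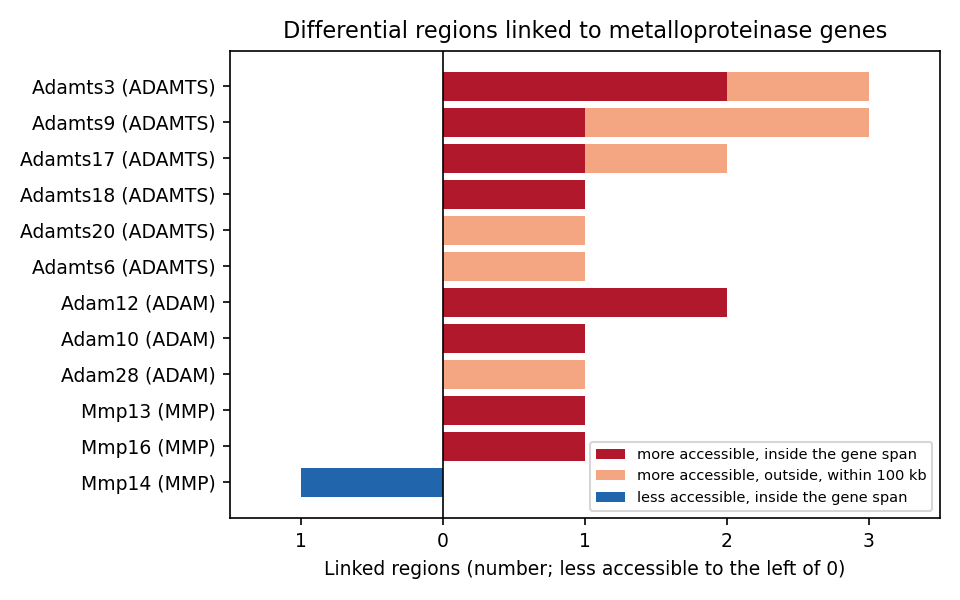
Number of listed regions linked to each of the 12 metalloproteinase genes that had any, with more accessible regions to the right of 0 (dark inside the gene span, light outside it within 100 kb) and less accessible regions to the left. Adamts3 and Adamts9 reach 3, and Mmp14 is the single gene on the left.

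Length goes with this difference between families. The median span was 114 kb for ADAMTS genes, 17.6 kb for ADAM genes, 12.7 kb for MMP genes and 28.4 kb for TIMP genes, against 17.2 kb over all protein-coding genes. Members with a more accessible region had a median span of 172 kb and those without one 17.0 kb. Long genes as a whole were linked more often. A more accessible region was linked to 2.0% of all genes with a span under 20 kb, to 7.67% of those from 20 to under 100 kb, to 23.8% of those from 100 to under 200 kb and to 43.1% of those of 200 kb and over. In the same classes it was linked to 1 of 37, 1 of 27, 4 of 7 and 5 of 9 members. Taking genes of 100 kb and over together, 9 of 16 members had such a region, where the share over all genes of that length was 31.7%. For ADAMTS genes it was 6 of 10 at this length and 0 of 9 below it. The 4 long ADAMTS genes without one were Adamts2, Adamts12, Adamts16 and Adamts19. Per length of gene, members held 2.04 more accessible regions inside their spans per Mb and all protein-coding genes 1.30, which rests on 10 regions in members. By family it was 2.14 for ADAMTS genes (5 regions), 1.65 for ADAM genes (3), 3.18 for MMP genes (2) and 0 for TIMP genes. On this measure ADAMTS genes did not have the highest value. How far length accounts for the share among ADAMTS genes was not tested.

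**Figure D2:**
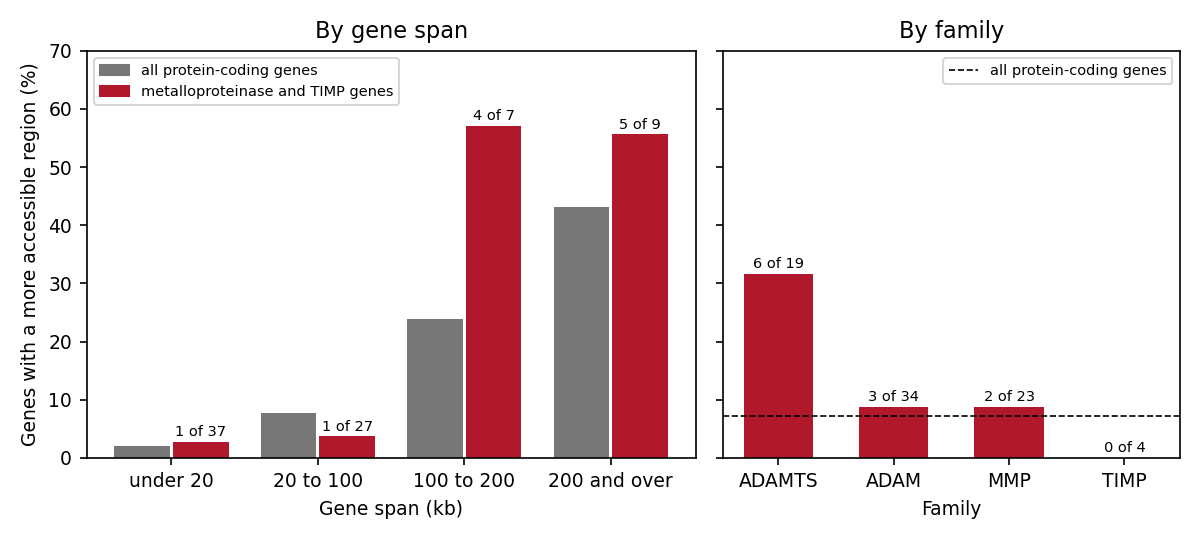
Percentage of genes with at least 1 linked more accessible region, on the left by gene span in kb for all protein-coding genes (grey) and for metalloproteinase and TIMP genes (red), on the right by family, with the dashed line at the 7.27% of all protein-coding genes. Shares rise with span in grey, members reach 4 of 7 and 5 of 9 in the longest classes, and ADAMTS is the family farthest above the line.

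Procollagen processing was represented by Adamts3, which encodes an enzyme that removes the amino-terminal propeptide of fibrillar procollagen and also processes VEGF-C. Its span is chromosome 5, 89673841 to 89883668, and it is transcribed towards lower coordinates. A pair of more accessible regions lay inside it, at 89722774 to 89723299 and at 89764268 to 89764715, which is 160 kb and 119 kb downstream of the start of transcription. The third, at 89935802 to 89936488, lay 52.8 kb upstream of the start, with no other protein-coding gene nearer than Cox18 at 279 kb. The other procollagen N-proteinase genes, Adamts2 (205 kb) and Adamts14, had no linked region.

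Among the ADAMTS enzymes that cleave proteoglycans, regions were linked to 2 of 7 genes, Adamts9 and Adamts20. These are the longest of the group, at 172 and 164 kb, and the next longest, Adamts5, spans 43.0 kb. Over all genes, a more accessible region was linked to 23.8% of those from 100 to under 200 kb. The share was 7.67% from 20 to under 100 kb and 2.0% under 20 kb. The products of Adamts9 and Adamts20 share a carboxy-terminal domain that the other ADAMTS proteins lack. Adamts9 (chromosome 6, 92772699 to 92944450, transcribed towards lower coordinates) had 1 region inside, at 92921071 to 92922261, which was the widest of the linked regions at 1191 bp and lay 21.9 kb downstream of the start. Its other 2 regions, at 92991463 to 92991961 and 93011885 to 93012305, lay 48.2 kb and 68.6 kb upstream, inside the span of the non-coding gene 9530026P05Rik and 285 kb or more from the next protein-coding gene, Prickle2. For Adamts20 (chromosome 15, 94268314 to 94432074, same orientation) the region at 94246773 to 94247686 lay 21.1 kb beyond the far end of the gene. It sat inside the span of the non-coding gene D630010B17Rik. The aggrecanase genes Adamts4 and Adamts5 had no link under the rule. A more accessible region lay 60.5 kb from Adamts4 but inside another gene, Pcp4l1. The nearest one to Adamts5 lay 215 kb away.

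In a group of 6 other ADAMTS genes, with a median span of 181 kb, 3 had a more accessible region. The share over all genes of 100 kb and over was 31.7%. Of these 3, Adamts6 and Adamts17 encode enzymes tied to fibrillin microfibrils, and Adamts18 encodes a paralogue of the Adamts16 product. Adamts10 (30.1 kb), Adamts16 (114 kb) and Adamts19 (218 kb) of the same group had no linked region. Adamts17 (chromosome 7, 66839699 to 67153171, transcribed towards higher coordinates) had 2 regions at its 3' end. One, at 67152585 to 67153029, lay inside the gene at 99.9% of its length from the start, 0.364 kb before the last annotated base. The other, at 67168329 to 67169426, lay 15.7 kb beyond it. Adamts18 (chromosome 8, 113697123 to 113849343) had 1 region inside, at 113740954 to 113741520, 108 kb downstream of its start. Adamts6 (chromosome 13, 104286518 to 104496695) had 1 region outside, at 104542796 to 104543591, 46.5 kb from the upper end of the span, and the next nearest gene, Cwc27, was 87.9 kb away.

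Among ADAM genes, regions were linked to 3 of the 9 that encode catalytic enzymes of somatic tissues, where the share over all genes was 7.27%. The median span of these 9 was 50.9 kb. Of the 3 linked genes, Adam12 spans 342 kb, Adam10 101 kb and Adam28 50.9 kb. Adam12 encodes meltrin alpha, a protein of developing mesenchyme and regenerating muscle, and had 2 regions inside its span (chromosome 7, 133883199 to 134225097). They lay at 133963526 to 133964468 and 134043546 to 134044076, which are 79.1 kb apart. The region at 134043546 also lay inside the span of the non-coding gene Gm39103. Adam10 encodes the enzyme that cleaves Notch receptors and N-cadherin at the cell surface. Its single region, at chromosome 9, 70701452 to 70701748, lay inside the gene 22.6 kb downstream of the start, and at 297 bp it was the narrowest of the linked regions. Adam28 is known for expression in lymphocytes. Its region (chromosome 14, 68729759 to 68730182), inside the span of the non-coding gene Gm46476, lay 74.1 kb outside the Adam28 span. This makes it the most distant of the links. The sheddase gene Adam17 had none under the rule, although a more accessible region lay 16.8 kb from it, inside Cpsf3. The 3 neural ADAM genes without protease activity, Adam11, Adam22 and Adam23, and the 22 germline and other ADAM genes had no linked region in either list. Adam22 is 296 kb long. The 22 germline and other ADAM genes had a median span of 8.35 kb, and 2.0% of all genes under 20 kb had a more accessible region. The counts for these groups are therefore not a contrast between somatic and germline genes apart from length.

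Among MMP genes 1 of the 4 collagenase genes, Mmp13, and 1 of the 6 membrane-type genes, Mmp16, had a more accessible region, and the membrane-type gene Mmp14 had the less accessible one. Mmp13 encodes the collagenase of hypertrophic cartilage and osteoblasts. It is also the shortest member with a more accessible region, at 10.8 kb (chromosome 9, 7272514 to 7283333), and 2.0% of all genes with a span under 20 kb had one. The region, at 7276857 to 7277361, lay inside the gene 4.6 kb downstream of the start. The nearest other more accessible region was 1693 kb away. Mmp13 stands at one end of a row of 10 MMP genes within 427 kb (Mmp13, Mmp12, Mmp1b, Mmp3, Mmp1a, Mmp10, Mmp8, Mmp27, Mmp20 and Mmp7). This was the only region of either list in that window. Mmp16 encodes a membrane-type MMP and is 264 kb long (chromosome 4, 17853072 to 18117479). Its region, at 17889402 to 17890365, lay inside, 36.8 kb from the lower end of the span.

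Mmp14 encodes MT1-MMP, the membrane-bound collagenase that activates pro-MMP2 together with TIMP2. The less accessible region, at chromosome 14, 54435076 to 54435799, lay inside the 10.9 kb gene (54431598 to 54442456), 3.84 kb downstream of the start. The next protein-coding gene, Mrpl52, was 5.69 kb away. A more accessible region lay 33.2 kb from it, inside Slc7a7. The nearest other less accessible region was 12823 kb away. Mmp13 and Mmp14, of similar gene length, had their regions at like distances inside the gene and in opposite lists. They are set side by side because of these positions, and the comparison rests on 1 region each. Under 20 kb, 2.70% of members and 2.0% of all genes had a more accessible region. Less accessible regions were linked to 1.25% of members and 1.99% of all genes.

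**Figure D3:**
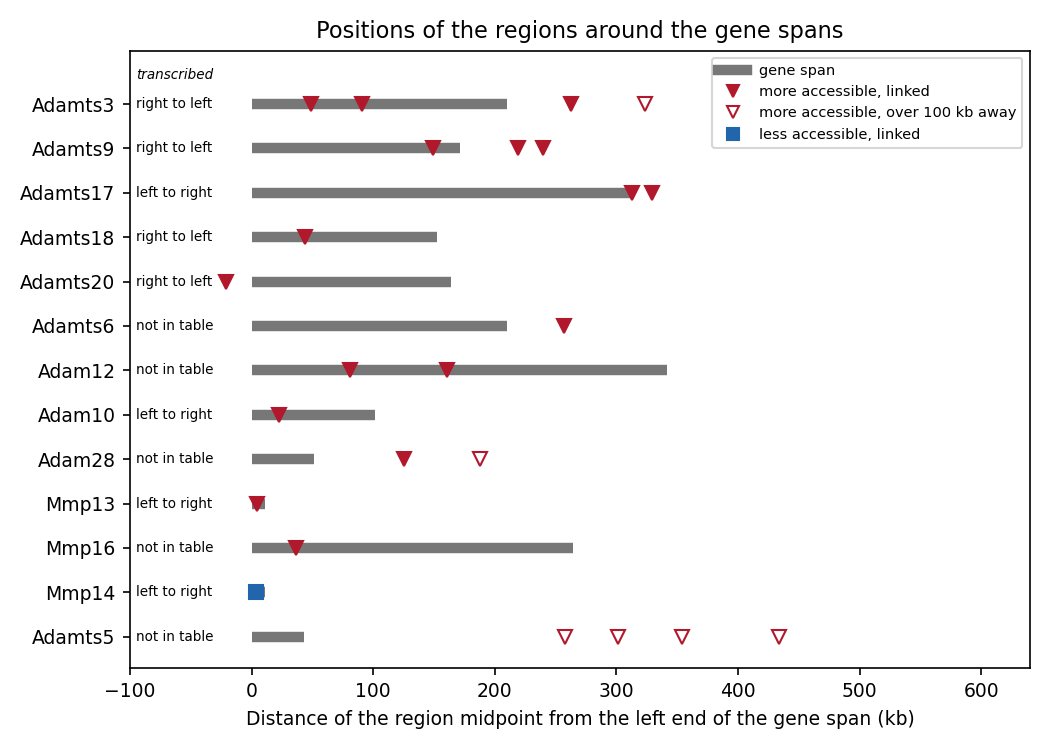
Positions of region midpoints in kb from the lower-coordinate end of each gene span (grey bar), with the direction of transcription beside the names where the promoter table gives it. Filled triangles are linked more accessible regions, the square is the less accessible region of Mmp14 and open triangles are more accessible regions over 100 kb away. Adamts17 has its regions at and beyond its 3' end, Adamts9 and Adamts3 have regions inside and upstream, and the 4 regions nearest to Adamts5 are all beyond the limit.

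The gelatinase genes Mmp2 and Mmp9, and the 4 genes of stromelysins and matrilysin, had no linked region. The nearest more accessible region was 1467 kb from Mmp2 and 679 kb from Mmp9. The TIMP genes had none in either list. A more accessible region lay 76.4 kb from Timp3 inside Syn3, 105 kb from Timp4 and 673 kb from Timp2, and a less accessible region lay 53.0 kb from Timp1 inside Araf. In all, 8 members lay within 100 kb of a more accessible region that was linked to another gene, among them Adam9 (57.8 kb, in Plekha2), Adamts14 (74.0 kb, in Sgpl1) and the Mmp13 neighbours Mmp12 and Mmp1b. For less accessible regions there were 4, at Mmp24 (32.0 kb, in Uqcc1), Mmp23 (68.1 kb, in Nadk), Adam18 (28.9 kb, in Ido2) and Timp1. Counting linked and unlinked regions alike, 23.8% of members lay within 100 kb of a more accessible region. For less accessible regions it was 6.25%. Over the protein-coding genes on chromosomes with listed regions, the shares were 16.7% and 7.04%. The median distance from a member to the nearest more accessible region was 309 kb, and from any protein-coding gene on a chromosome with listed regions 492 kb. For less accessible regions the order was the other way, at 1750 kb for members and 1340 kb for all genes on such chromosomes.

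The 17 more accessible regions had a median width of 531 bp (297 to 1191 bp), against 572 bp over the whole list of more accessible regions. Inside a gene lay 10 of 17 (58.8%), against 45.4% over the list, a share that the linking rule raises because regions far from genes are left out. Those outside lay 15.7 to 74.1 kb from the span, with a median of 47.3 kb, against 72.6 kb for the list, which has no limit of distance. None had a neighbour of the same list within 10 kb, while 357 of the 2965 listed regions did. The closest pair, at Adamts17, was 15.3 kb apart. The median gap to the nearest region of the list was 69.2 kb, against 120 kb over the list. Regions linked to one gene can be each other's nearest, and the list again includes regions far from genes. None overlapped a promoter window, here 250 bases before to 50 after a RefSeq start of transcription, and 0.808% of the listed regions on chromosomes with such windows did.

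The promoters nearest to a region of these genes were those of Mmp14 and Mmp13, whose windows ended 3.43 kb and 4.29 kb short of it. The next were those of Adamts9 and Adam10 at 21.2 kb and 22.4 kb. Promoter sequences were taken from RefSeq (GRCm38.p6), which matched 50 of the 80 members and 8 of the 12 with a linked region. Adam12, Adam28, Adamts6 and Mmp16 were not among them. The 250 bases before the start are shown for Mmp13 and Mmp14, as the nearest pair in opposite lists, and for Adamts9 and Adamts3, as the genes with most regions. Capitals mark matches, on either strand, to the letters TGANTCA (AP-1), GGAATG (TEAD), TGTGGT (RUNX) or GGCGCC (a GC-rich element bound by BMP-responsive SMAD proteins), which do not overlap each other here. Positions are counted backwards from the start of transcription, with negative numbers.
Mmp13, chr9:7272264-7272513, plus strand: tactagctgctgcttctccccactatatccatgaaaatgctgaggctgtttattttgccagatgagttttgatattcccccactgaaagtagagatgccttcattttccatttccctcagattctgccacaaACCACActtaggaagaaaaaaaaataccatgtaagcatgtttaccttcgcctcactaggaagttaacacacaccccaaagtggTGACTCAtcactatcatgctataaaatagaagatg
Mmp14, chr14:54431348-54431597, plus strand: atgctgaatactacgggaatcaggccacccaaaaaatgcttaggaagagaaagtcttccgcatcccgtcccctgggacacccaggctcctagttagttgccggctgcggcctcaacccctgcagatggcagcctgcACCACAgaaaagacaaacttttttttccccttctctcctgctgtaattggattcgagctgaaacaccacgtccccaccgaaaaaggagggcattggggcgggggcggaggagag
Adamts9, chr6:92943535-92943784, minus strand: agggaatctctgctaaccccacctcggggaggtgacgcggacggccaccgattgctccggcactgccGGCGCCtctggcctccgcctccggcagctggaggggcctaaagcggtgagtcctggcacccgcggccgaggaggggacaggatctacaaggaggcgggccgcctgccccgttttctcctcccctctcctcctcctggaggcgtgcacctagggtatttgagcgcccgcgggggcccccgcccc
Adamts3, chr5:89883335-89883584, minus strand: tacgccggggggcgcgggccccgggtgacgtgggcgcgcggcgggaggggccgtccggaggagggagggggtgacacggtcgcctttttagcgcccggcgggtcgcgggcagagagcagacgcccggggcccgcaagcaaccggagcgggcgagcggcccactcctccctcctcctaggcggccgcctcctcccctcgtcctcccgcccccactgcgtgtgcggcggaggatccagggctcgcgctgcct

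The Mmp13 promoter held an AP-1 match starting at position -35 and a RUNX match, on the minus strand, at -118. The Mmp14 promoter held a RUNX match on the minus strand at -114, and that of Adamts9 a match to the SMAD element at -183. None of the 4 motifs was found in these 250 bases of Adamts3. The 4 windows differed in composition. Mmp13 had 40.4% G and C with 1 CpG, Mmp14 55.2% with 10, Adamts9 71.2% with 22 and Adamts3 78.0% with 35, where the median over all windows was 52.4%. Each match is a description of letters, and none of these windows was in either list.

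Over all windows of protein-coding genes, AP-1 letters were found in 6.13%, TEAD in 11.7%, RUNX in 12.4% and the SMAD element in 12.3%. Of the 55 windows of members 12, 3, 11 and 8 held them, in the same order. AP-1 letters occurred at 12 member genes, 8 of them MMP genes (Mmp13, Mmp12, Mmp1b, Mmp3, Mmp1a, Mmp10, Mmp20 and Mmp7). These 8 belong to the row of 10 neighbouring MMP genes, which are paralogues side by side, so they are not independent of each other. Of these 8 genes Mmp13 alone had a linked region. Among the 8 windows of genes with a linked region, AP-1 letters were in 1, RUNX in 2, the SMAD element in 1 and TEAD in 0.

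Genes that work with these enzymes were taken from a list of 53, all matched by symbol. The list was drawn up with earlier results of these data known, so its shares are a description and not separate support. More accessible regions were linked to 8 of them (15.1%, against the 7.27% of all genes) and less accessible regions to 3 (5.66%, against 1.99%). These shares take no account of gene length, and 31.7% of all genes of 100 kb and over had a more accessible region. Of the 6 ADAMTS-like and papilin genes, whose products resemble ADAMTS enzymes without the protease part, 2 had more accessible regions. Adamtsl1 (915 kb) had 6 and Adamtsl3 (279 kb) had 5, together 11 of the 19 more accessible regions linked to the 53 genes. Among other secreted metalloproteinases of the astacin and pappalysin groups, 3 of 7 had them. Pappa and Pappa2, which cleave IGF-binding proteins, had 2 each, and Tll1, a relative of the procollagen C-proteinase, had 1. Single more accessible regions were linked to Pcsk6, a proprotein convertase, to Tspan5, a tetraspanin that guides ADAM10 to the cell surface, and to Cd44, a membrane protein shed by these enzymes.

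The less accessible regions of this list were at other genes. Plaur encodes the urokinase receptor of plasminogen activation, the cascade that activates several pro-MMPs, and had 1 such region 1.14 kb from its span. The remaining less accessible regions were linked to Furin, the convertase that activates membrane-type MMPs and ADAMs, at 14.0 kb, and to Spock3, a matrix proteoglycan gene whose product inhibits membrane-type MMPs, inside its span. Plaur and Furin span 15.0 and 16.2 kb and Spock3 406 kb, and the related genes with a more accessible region span 90.5 to 915 kb. None of the 5 genes listed for matrix substrates (Acan, Vcan, Bcan, Ncan and Comp) had a linked region in either list. They span 8.52 to 87.7 kb. A more accessible region was linked to 2.0% of all genes under 20 kb and to 7.67% from 20 to under 100 kb.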

How the data were processed

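ATAC-seq libraries of 3 wild-type and 3 FOP mutant cultures were compared by the authors, and their lists of regions more and less accessible in mutant cells were deposited as chromosome, start and end, without header or values. Per the submitters' processing notes, the authors used Bowtie2, MACS2, featureCounts and DESeq2 with Trimmomatic, SAMtools and bedtools, on mm10 and GRCm38. Not given in the sources used here are the cutoffs, any shift of reads for the transposase, the removal of duplicates, and whether peaks came from single or pooled libraries. The direction is that in each list's name. The labels give the samples' groups, but no test over samples could be run.

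Starts were converted to count from 1. Regions were linked by midpoint to RefSeq GRCm38.p6 spans (Python 3.11.15). Linking was checked on 200 positions planted inside genes and 200 outside, all linked as they should be. Intervals came from SciPy 1.17.1. The genes to be named are every member and related gene with a region, and otherwise the TIMP genes and Mmp2, Mmp9, Mmp13, Mmp14, Adam10, Adam17, Adamts4 and Adamts5. Other names were chosen after their values were seen. Members, lists and roles were chosen with earlier results of these data known. Some results for related genes are not reported here. Motifs and classes of span were chosen after the data were seen. Across genes, shares with a linked region are over all 21887 protein-coding genes, or over those of a span class. Distances to the nearest region and shares within 100 kb are over the 21631 genes on chromosomes with listed regions. Motif shares are over 21263 windows of protein-coding genes. In addition, 6 alternatives of linking were tried.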

Additional observations from a re-analysis of the deposited data

How the results depend on the processing

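The 5 counts and shares for the members were recomputed under 6 other ways of linking regions to genes. With links outside genes limited to 10 kb, the more accessible regions fell in number from 17 to 10, at 8 genes, since Adam28, Adamts6 and Adamts20 have outside regions alone. The share over all genes was then 5.03%. With no limit of distance, 24 more accessible regions were linked to 13 genes (8.44% of all genes), and the less accessible list gave 2 regions at 2 genes, Mmp14 and Adamts16. Under the nearest gene end 16 more accessible regions were linked to the same 11 genes. Under the other 3 ways, any overlap in place of the midpoint, merging regions within 10 kb and the shortest span alone, the counts were those given. The share of more accessible regions ran from 90.9% to 94.4%.

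No paired analysis was possible because the lists hold no value per library. For the same reason no library was left out, and depth per library, fold changes and the peaks that did not differ are not analysed here.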

Other observations

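Beyond the limit of 100 kb, 8 more listed regions had a member as the nearest protein-coding gene. They are named here for that reason, chosen after their values were seen. More accessible regions made up 7 of them, and 4 of these lay on one side of Adamts5, which encodes an aggrecanase of cartilage. These stood at chromosome 16, 86115994 to 86116363, 86159172 to 86159795, 86211444 to 86212081 and 86291302 to 86292036, between 215 and 391 kb from the Adamts5 span. The next gene on that side of the chromosome lies farther from each of them, and the next nearest, Adamts1, is 313 to 489 kb away beyond Adamts5. No linked region stood at either gene, so this locus adds nothing to the counts for ADAMTS genes at the limit of 100 kb. Adamts3 had another region 114 kb from its span, on the same side as the one 52.5 kb away, and Adam28 another at 137 kb. Single regions lay 615 kb from Adam34l, at almost the same distance from Fat1, and, in the less accessible list, 432 kb from Adamts16.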
